A study of Mus musculus with 6 samples.

Results

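Nuclear-encoded genes of the mitochondrial respiratory chain and ATP synthase were followed in mouse lung tissue by array. The group holds genes whose symbol starts with Ndufa, Ndufb, Ndufc, Ndufs, Ndufv, Sdha, Sdhb, Sdhc, Sdhd, Uqcr, Cox4, Cox5, Cox6, Cox7, Cox8 or Atp5 and whose probe set carries no other symbol, with the probe set of highest mean level taken for each gene. It has 93 members among 22180 genes: 79 subunits and subunit isoforms, 12 assembly factors that the prefixes take in (8 Ndufaf and 4 Sdhaf genes) and the pseudogenes Uqcrh-ps1 and Atp5c1-ps. All 6 mice were of the outbred CD1 strain and aged 10 weeks: 3 were intact, which is a sham group, and 3 were preconditioned, having been ventilated with low pressures for 90 minutes 1 week before their lungs were sampled. The labels call the 3 arrays of a group biological replicates, 1 per mouse, and this number limits the precision of every value. Levels are log2 RMA signals, in which a step of 1 is a doubling. The groups were compared within each gene, since probes of different genes do not share a scale. Levels were used across probe sets or genes to choose a probe set, to split genes at the median level and to average lists.

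The respiratory chain sits in the inner mitochondrial membrane. Complex I (NADH dehydrogenase) and complex II (succinate dehydrogenase) pass electrons from metabolites to ubiquinone, complex III passes them on to cytochrome c, complex IV (cytochrome c oxidase) hands them to oxygen, and complex V (ATP synthase) uses the resulting proton gradient to make ATP. All subunits of complex II and most subunits of the other complexes are encoded in the nucleus and the rest in mitochondrial DNA. Several complex IV subunits exist as a general form and as a form best known from heart and skeletal muscle, and Cox4i2 is a form of subunit 4 known for its expression in lung.

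No member passed an adjusted p of 0.05 in limma with Benjamini-Hochberg adjustment over all genes, where 21 of 22180 genes (0.0947%) did. The smallest adjusted p belonged to Cox6a1 (0.0803) and Atp5g1 (0.0949), which differed in opposite directions. At an unadjusted p under 0.05, 12 members were lower in preconditioned lungs and 8 were higher, against 11.6% of all genes lower and 7.53% higher. As shares these are 12.9% and 8.60% of the members, close to the background in both directions. All preconditioned values lay below all intact values for 9 members (9.68%, background 13.0%) and above them for 8 members (8.60%, background 11.7%).

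Small negative differences were common among the members. The log2 difference, preconditioned minus intact, was below 0 for 65 of 93 members and for 10482 of all 22180 genes. Its median was -0.10 over the members against 0.01 over all genes. Much of this gap was shared by genes of higher level. Among the 11090 genes above the median level the median was -0.09, against -0.13 for the 80 members there. Of these 80, 11 were lower and 6 higher at an unadjusted p under 0.05 (background 19.2% and 5.21%). Over all members the difference ranged from -0.93 for Cox6a2 to 0.61 for Atp5g1, and 10 members exceeded 0.5 in size. The 95% interval of a member's difference reached a median of 0.30 to either side. The number of negative differences depended on the scaling: 51 after a further quantile normalization (median -0.04), 52 after cyclic loess (-0.02) and 70 after median centring (-0.15, with all genes at -0.04). The counts at an unadjusted p under 0.05 were then 9 lower and 7 higher (background 9.22% and 7.35%), 8 and 7 (9.73% and 6.83%), and 18 and 4 (15.0% and 4.63%), and median centring moved the split of all genes from 2569 lower and 1670 higher to 3337 and 1028.

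**Figure D1:**
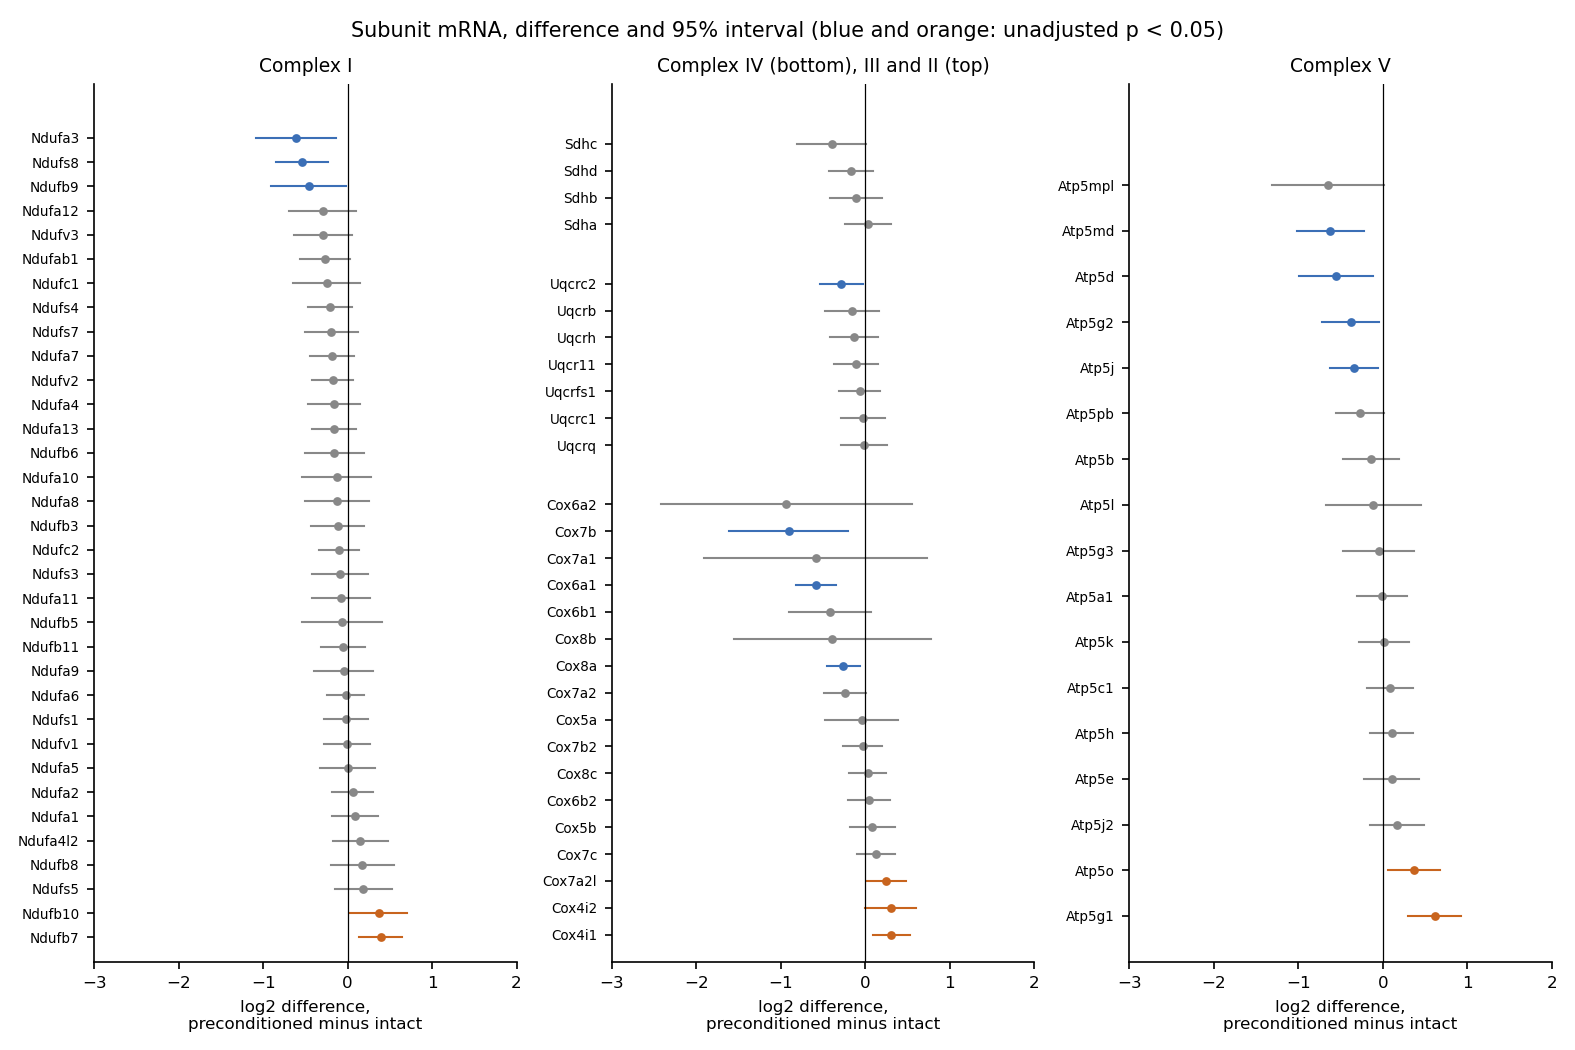
Log2 differences (preconditioned minus intact, x axis) of the 79 subunits and isoforms by complex, each point with its 95% interval from limma. Blue marks the 11 subunits that were lower and orange the 7 that were higher at an unadjusted p under 0.05; the muscle isoforms Cox6a2, Cox7a1 and Cox8b have the widest intervals.

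Among the promoters of these genes, motif cores of the factors known to control respiratory chain genes were common. NRF1, GABPA (an ETS factor, also called NRF2) and YY1 are such factors. RefSeq promoter windows of GRCm38.p6, from 250 bases before to 50 bases after the annotated start, were matched by symbol for 76 members, 65 of them subunits. Searched on both strands, the NRF1 core GCGCANGCG was found in 26.2% of the 65 subunit windows, against 9.46% of 15378 windows of protein-coding genes measured on the array and 6.47% of all 27025 windows. The ETS core CCGGAAG was in 24.6%, against 12.3% and 9.12%, and the YY1 core AAGATGGC in 12.3%, against 3.38% and 2.88%. At least 1 of the 3 was present in 35 of 65 subunit windows (53.8%, against 22.1% of the protein-coding genes on the array). Among windows with a G+C content of at least 53.67%, 49 of subunits and 9503 of protein-coding genes on the array, the NRF1 core was in 28.6% against 13.9%, the ETS core in 24.5% against 16.6% and the YY1 core in 10.2% against 4.10%. The gap for the ETS core was smaller there than over all windows. Subunits of complex IV had a match in 3 of 13 windows, those of complex I in 16 of 30 and those of complex V in 10 of 15.

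Subunits with and without a core were set side by side, as a description with no test. The median log2 difference was -0.11 for the 35 subunits with at least 1 match and -0.12 for the 30 without. It was -0.03 with and -0.14 without the NRF1 core, -0.12 with and -0.08 without the ETS core, and -0.20 with (8 subunits) and -0.11 without (57) the YY1 core. A match describes these letters only and shows no binding.

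**Figure D2:**
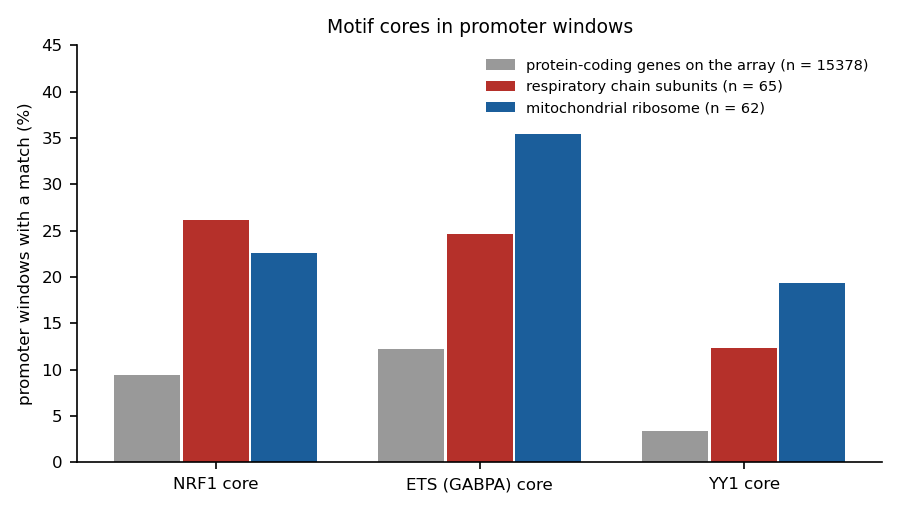
Share of promoter windows (y axis, percent) that hold the core of NRF1, GABPA or YY1 on either strand, in protein-coding genes measured on the array, in subunits and in genes of the mitochondrial ribosome. The subunits lie above the protein-coding genes for all 3 cores, and the mitochondrial ribosome reaches 35.5% for the ETS core.

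The 250 bases before the start are shown for 5 members on which the comparison turns, with matches in capitals: Cox6a1, lowest in p among the lower subunits, with 2 NRF1 stretches and 1 ETS core; Ndufb7 and Atp5g1, lowest in p among the higher subunits of their complexes, with 1 ETS core and no match; and the muscle isoforms Cox7a1 and Cox8b, with no match. The windows are at chr5:115348959-115349208 for Cox6a1, chr8:83566508-83566757 for Ndufb7, chr11:96075632-96075881 for Atp5g1, chr7:30183921-30184170 for Cox7a1 and chr7:140900447-140900696 for Cox8b, each written along the strand of its gene, which is the plus strand for Ndufb7 and Cox7a1 and the minus strand for the others.
Cox6a1: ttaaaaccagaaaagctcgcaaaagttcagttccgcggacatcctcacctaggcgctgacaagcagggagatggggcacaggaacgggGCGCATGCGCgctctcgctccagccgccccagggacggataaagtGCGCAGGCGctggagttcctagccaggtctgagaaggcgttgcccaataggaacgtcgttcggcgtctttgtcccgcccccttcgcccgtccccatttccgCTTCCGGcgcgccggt
Ndufb7: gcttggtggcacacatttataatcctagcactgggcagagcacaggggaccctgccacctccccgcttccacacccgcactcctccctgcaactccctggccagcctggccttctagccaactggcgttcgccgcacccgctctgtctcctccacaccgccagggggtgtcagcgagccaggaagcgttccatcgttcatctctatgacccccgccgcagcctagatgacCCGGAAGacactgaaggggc
Atp5g1: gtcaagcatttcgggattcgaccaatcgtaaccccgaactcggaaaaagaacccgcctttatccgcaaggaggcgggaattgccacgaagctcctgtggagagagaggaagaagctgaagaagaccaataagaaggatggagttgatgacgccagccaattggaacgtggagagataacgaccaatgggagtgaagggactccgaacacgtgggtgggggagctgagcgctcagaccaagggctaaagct
Cox7a1: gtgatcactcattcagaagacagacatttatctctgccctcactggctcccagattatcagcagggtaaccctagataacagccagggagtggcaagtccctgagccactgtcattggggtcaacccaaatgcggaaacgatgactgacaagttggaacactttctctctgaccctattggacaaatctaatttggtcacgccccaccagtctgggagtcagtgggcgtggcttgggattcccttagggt
Cox8b: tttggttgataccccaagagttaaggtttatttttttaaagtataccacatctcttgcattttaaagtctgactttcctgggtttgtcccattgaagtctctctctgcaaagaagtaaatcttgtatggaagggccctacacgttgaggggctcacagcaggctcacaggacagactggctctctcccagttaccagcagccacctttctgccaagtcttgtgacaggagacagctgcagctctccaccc

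Complexes were assigned by symbol alone, so complex I here holds every Nduf symbol, Ndufa4 and Ndufa4l2 among them. It had 42 members, 34 subunits and 8 assembly factors, with a median log2 difference of -0.11 and 32 members below 0. At an unadjusted p under 0.05, 4 members were lower (9.52%) and 2 higher (4.76%), both shares below those of all genes (11.6% and 7.53%). Ndufs8, an iron-sulfur subunit of the arm that carries electrons to ubiquinone, read 8.32, 8.56 and 8.52 in the intact mice and 7.72, 8.17 and 7.90 in the preconditioned mice. All preconditioned values lay below all intact ones, with a difference of -0.54 (SE 0.13, 95% interval -0.84 to -0.23, adjusted p = 0.107). Ndufa3, an accessory subunit of the membrane arm, read 9.16, 9.72 and 9.84 in intact and 8.81, 9.30 and 8.78 in preconditioned mice. Its groups overlapped through intact replicate 1 and preconditioned replicate 2 (difference -0.61, SE 0.21, adjusted p = 0.177). Ndufb9, another accessory subunit, overlapped in the same way and was at -0.46 (adjusted p = 0.249).

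The accessory subunits Ndufb7 and Ndufb10 of the membrane arm stood on the other side. Ndufb7 read 7.26, 7.20 and 7.16 in intact and 7.54, 7.79 and 7.46 in preconditioned lungs. The groups did not overlap, and the difference was 0.39 (SE 0.11, interval 0.14 to 0.64, adjusted p = 0.129). Ndufb10 read 6.54, 6.79 and 6.30 in intact and 6.79, 7.11 and 6.82 in preconditioned lungs, a gap that is very narrow (difference 0.37, SE 0.15, adjusted p = 0.227). The subunit family Ndufb thus held members on both sides of 0. The next subunits by size of the test statistic, all with overlapping groups, were Ndufab1, the mitochondrial acyl carrier protein (-0.27), Ndufv3 (-0.29) and Ndufs4, an accessory subunit needed for a stable enzyme (-0.21), with adjusted p from 0.297 to 0.359. Of the other core subunits that carry the flavin or iron-sulfur centres, Ndufv1 was at -0.01 (interval -0.28 to 0.27), Ndufs1 at -0.02 (-0.28 to 0.24), Ndufv2 at -0.18 (-0.43 to 0.07) and Ndufs7 at -0.19 (-0.51 to 0.12), all nearer to 0 than Ndufs8. Ndufa4l2, a relative of Ndufa4 induced by hypoxia, read 7.64, 7.20 and 7.10 in intact and 7.47, 7.43 and 7.49 in preconditioned lungs, which overlap (difference 0.15, adjusted p = 0.588).

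Complex II had 4 subunits, and none reached an unadjusted p under 0.05. Sdhc, a membrane anchor subunit with heme, read 7.87, 8.35 and 8.48 in intact and 7.77, 8.08 and 7.65 in preconditioned lungs. Only intact replicate 1 lay within the preconditioned range (difference -0.40, SE 0.18, adjusted p = 0.271). Sdhd, the other anchor, was at -0.17, the iron-sulfur subunit Sdhb at -0.11 and the flavoprotein Sdha at 0.03, with adjusted p from 0.439 to 0.908. For Sdha the sign turned under median centring (-0.02), and its interval was -0.24 to 0.31. Including the 4 Sdhaf genes the median of complex II was -0.12 over 8 members.

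Complex III had 7 subunits with a probe set of their own, all 7 with a difference below 0 and a median of -0.11. With the pseudogene Uqcrh-ps1 (mean level 3.42, difference 0.34) the median over the 8 members was -0.09. After cyclic loess that median was -0.02. Uqcrc2, a core protein of the matrix side, read 8.82, 9.04 and 8.89 in intact and 8.47, 8.78 and 8.66 in preconditioned lungs. The groups did not overlap, with preconditioned replicate 2 closest to the intact mice (difference -0.28, SE 0.11, adjusted p = 0.226). Uqcrb was at -0.16, the hinge protein Uqcrh at -0.13 and Uqcr11 at -0.11, with adjusted p from 0.565 to 0.633. The Rieske iron-sulfur protein Uqcrfs1 was at -0.07 (interval -0.31 to 0.18).

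Complex IV held the subunit of smallest p in the group. Cox6a1, the general form of subunit 6a, read 11.70, 11.98 and 11.94 in intact lungs and 11.34, 11.26 and 11.28 in preconditioned lungs. All preconditioned mice lay close together and below every intact mouse, a difference of -0.58 (SE 0.10, interval -0.82 to -0.35, 1.497-fold lower, adjusted p = 0.0803). Cox8a, the general form of subunit 8, read 9.92, 10.01 and 9.90 in intact and 9.68, 9.70 and 9.67 in preconditioned lungs. These groups were apart too, with a preconditioned SD of 0.014 (difference -0.26, SE 0.08, adjusted p = 0.164). Cox7b, an accessory subunit, read 7.70, 7.86 and 8.75 in intact and 6.78, 7.68 and 7.14 in preconditioned lungs. Intact replicate 3 stood high, and preconditioned replicate 2 reached almost to the lowest intact value (difference -0.91, SE 0.30, interval -1.61 to -0.21, adjusted p = 0.175).

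Other subunits of complex IV were higher in preconditioned lungs. Cox4i1, the general form of subunit 4, which takes part in regulation of the enzyme by ATP, read 8.50, 8.56 and 8.58 in intact and 8.80, 9.001 and 8.77 in preconditioned lungs. The groups were apart, with a difference of 0.31 (SE 0.10, interval 0.09 to 0.53, adjusted p = 0.152). Cox4i2, the form known from lung, read 7.86, 7.90 and 7.60 in intact and 8.24, 7.87 and 8.17 in preconditioned lungs. Preconditioned replicate 2 fell inside the intact range (difference 0.30, SE 0.13, adjusted p = 0.260). Cox7a2l, which takes part in joining complexes III and IV into supercomplexes, was at 0.25 with its groups apart (adjusted p = 0.233). Cox6b2, known from testis, was at 0.04 (interval -0.21 to 0.29), with a sign that turned under median centring (-0.01). The median over the 17 members of complex IV was -0.04, with 10 below 0.

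Complex V had 17 subunits, of which 4 were lower (23.5%, background 11.6%) and 2 higher (11.8%, background 7.53%) at an unadjusted p under 0.05. All but 1 of these subunits lay above the median level, and of all genes above it 19.2% were lower and 5.21% higher. Groups were apart for 1 lower subunit (5.88%, background 13.0%) and 2 higher subunits (11.8%, background 11.7%). The median of the 17 subunits was -0.05. With the pseudogene Atp5c1-ps (mean level 3.52, difference 0.23) the median of the 18 members was -0.03. The median of the 18 was 0.05 after a further quantile normalization and 0.06 after cyclic loess, so its sign depended on the scaling. Atp5g1, which encodes the proton-carrying subunit c of the membrane ring, read 6.26, 5.89 and 6.20 in intact and 6.78, 6.52 and 6.89 in preconditioned lungs. The groups were apart, with a difference of 0.61 (SE 0.14, interval 0.30 to 0.93, 1.53-fold higher, adjusted p = 0.0949). Atp5g2 and Atp5g3 encode the same mature subunit c. Atp5g2 read 10.03, 10.59 and 10.45 in intact and 9.88, 10.05 and 10.00 in preconditioned lungs, which overlap through intact replicate 1 (difference -0.38, adjusted p = 0.218), and Atp5g3 was at -0.05.

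Atp5md, a small subunit of the membrane part also known as Usmg5, read 10.04, 10.51 and 10.27 in intact and 9.46, 10.00 and 9.51 in preconditioned lungs. The groups were apart by a narrow gap between preconditioned replicate 2 and intact replicate 1 (difference -0.62, SE 0.17, interval -1.02 to -0.22, adjusted p = 0.130). Atp5d, the delta subunit of the catalytic part, read 7.50, 7.78 and 8.08 in intact and 6.94, 7.55 and 7.20 in preconditioned lungs and overlapped (difference -0.55, adjusted p = 0.180). Atp5j, coupling factor 6 of the stalk, was at -0.34 (adjusted p = 0.190), and Atp5o, the stalk protein that confers sensitivity to oligomycin, at 0.37 with its groups apart (adjusted p = 0.190). Of the subunits of the catalytic hexamer, Atp5a1 was at -0.01 (interval -0.31 to 0.28) and Atp5b at -0.14 (-0.47 to 0.19).

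**Figure D3:**
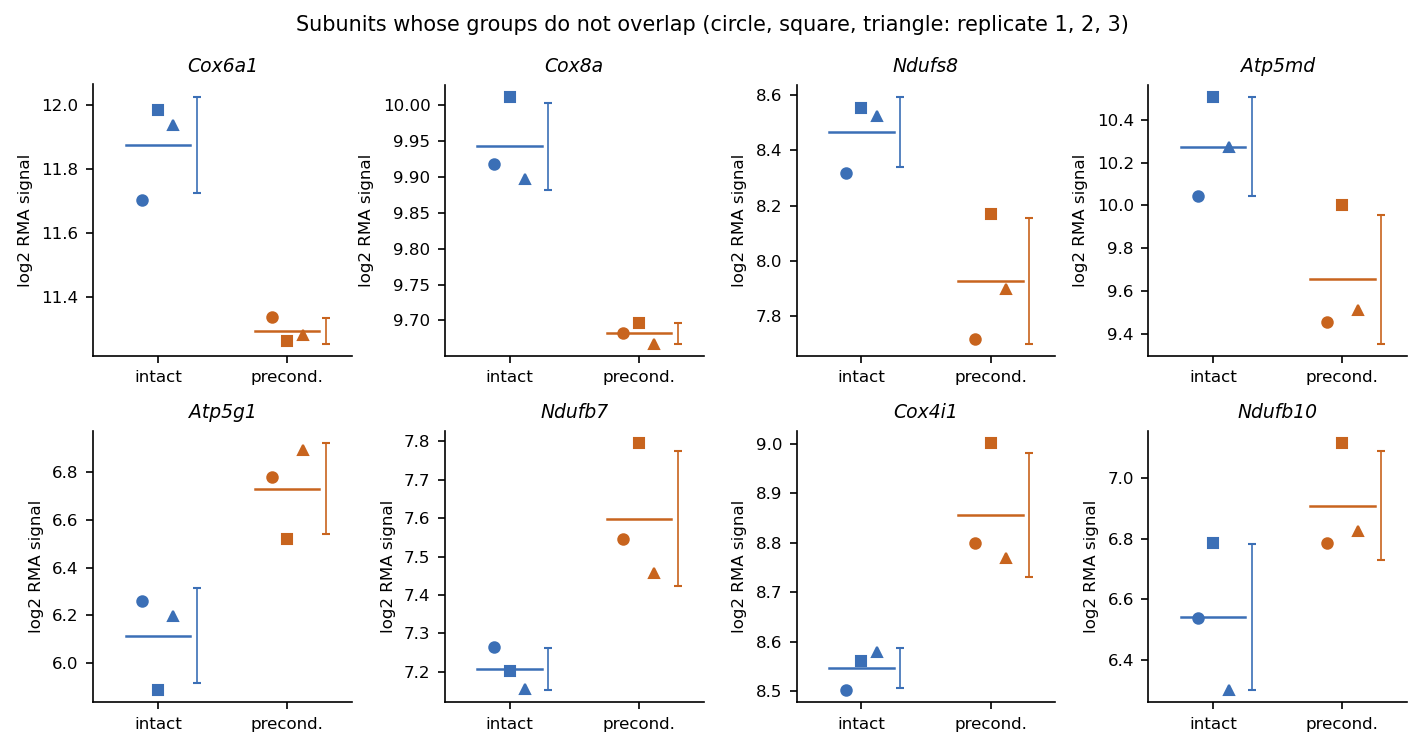
Log2 RMA signals (y axis, a separate scale in each panel) of 8 subunits whose intact (blue) and preconditioned (orange) values do not overlap; symbols give the replicate, horizontal lines the mean and bars the SD (n = 3). Cox6a1, Cox8a, Ndufs8 and Atp5md are lower, and Atp5g1, Ndufb7, Cox4i1 and Ndufb10 higher, in preconditioned lungs. Uqcrc2, Cox7b, Cox7a2l and Atp5o also had separate groups and are not shown. Of the 79 subunits, 6 were apart and lower and 6 apart and higher (7.59% each, background 13.0% and 11.7%).

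The muscle isoforms of complex IV had the largest spread over preconditioned mice of all 93 members, with SDs of 1.51 for Cox6a2, 1.37 for Cox7a1 and 1.197 for Cox8b, followed by 0.45 for Cox7b. Cox6a2 read 8.33, 8.59 and 9.25 in intact and 6.41, 9.39 and 7.57 in preconditioned lungs. Preconditioned replicate 1 was the lowest and preconditioned replicate 2 the highest of all 6 arrays, 2.99 apart on the log2 scale, so that the difference of -0.93 had an SE of 0.64 (adjusted p = 0.463). Cox7a1 read 7.52, 7.36 and 7.99 in intact and 5.76, 8.48 and 6.86 in preconditioned lungs (difference -0.59, SE 0.58, adjusted p = 0.608). Cox8b read 6.32, 6.20 and 6.80 in intact and 4.92, 7.30 and 5.93 in preconditioned lungs (difference -0.39, SE 0.51, adjusted p = 0.709). For all 3 genes the order within the preconditioned mice was the same, replicate 2 above 3 above 1, and without preconditioned replicate 1 the differences of Cox7a1 and Cox8b were 0.05 and 0.18. The general forms did not share this spread: preconditioned replicate 2 minus replicate 1 was -0.08 for Cox6a1, 0.014 for Cox8a and 0.14 for Cox7a2.

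**Figure D4:**
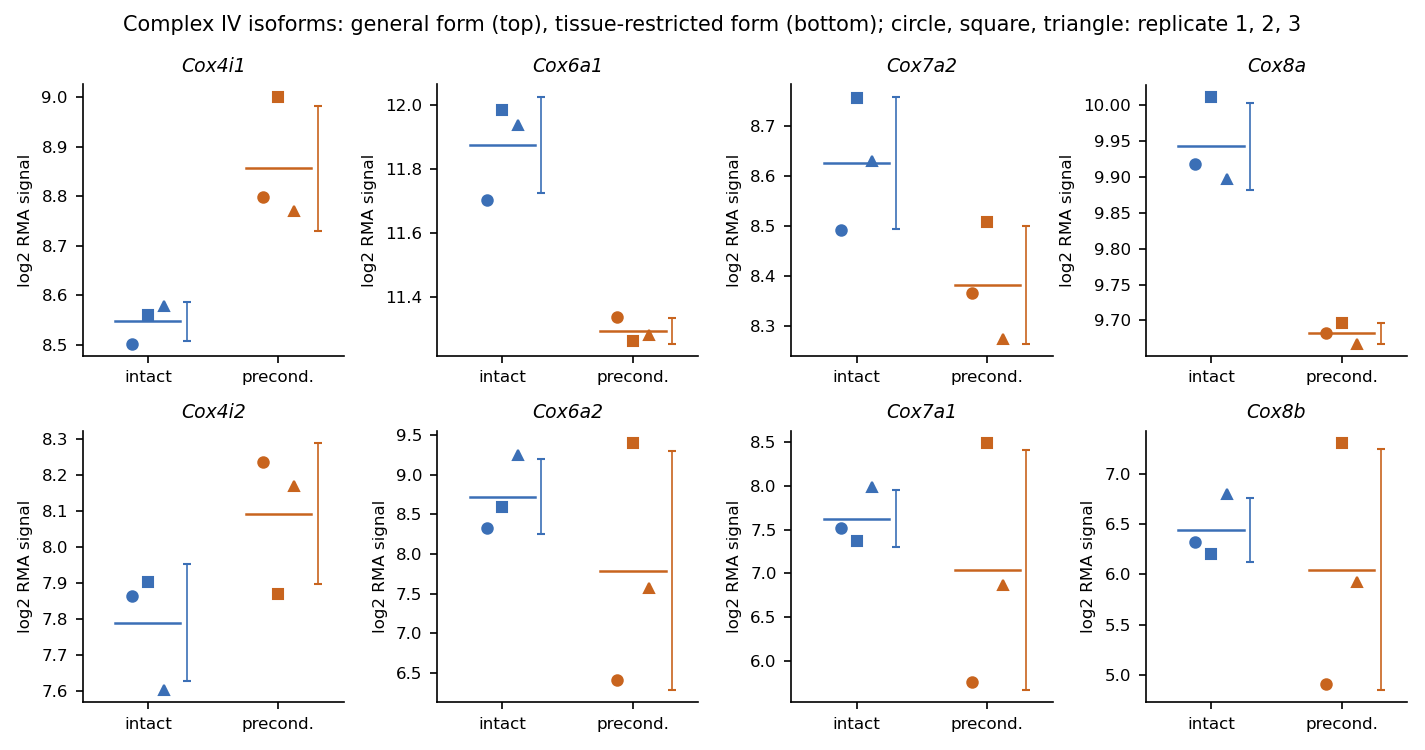
Log2 RMA signals (y axis, a separate scale in each panel) of complex IV subunits in their general form (top row) and tissue-restricted form (bottom row) in intact (blue) and preconditioned (orange) mice; symbols give the replicate, lines the mean and bars the SD (n = 3). Cox6a2, Cox7a1 and Cox8b span more than 2 log2 units over the preconditioned mice, with replicate 2 highest and replicate 1 lowest.

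The mean level of 14 heart muscle markers had the same order over the 6 arrays as Cox7a1 and Cox8b. It was 7.91, 7.65 and 8.18 in intact and 5.78, 8.99 and 7.32 in preconditioned lungs. Of the 14 markers, 12 had a difference below 0 and none reached an unadjusted p under 0.05. Not every marker kept that order. Nppa, with the largest moderated statistic among the 14, read 5.54, 6.54 and 6.32 in intact and 6.13, 8.85 and 6.32 in preconditioned lungs (difference 0.97). For Tnni3, preconditioned replicate 3 (8.06) lay above intact replicate 2 (7.86). Sln, the sarcolipin of atrial muscle, read 8.46, 8.44 and 9.20 in intact and 4.64, 9.80 and 7.39 in preconditioned lungs. Tnnt2, the cardiac troponin T gene, read 10.05, 9.78 and 10.57 in intact and 7.42, 11.05 and 9.42 in preconditioned lungs. Myl2, the light chain of the ventricle, stayed between 4.63 and 4.92 on all 6 arrays. The mean level of 6 skeletal muscle markers ranged from 5.29 to 5.46 in intact and from 5.39 to 5.62 in preconditioned lungs, and that of 7 fat markers from 4.66 to 4.96 and from 4.72 to 4.89. In such tissue samples fewer cells of a type and less RNA per cell cannot be told apart.

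The single mice also differed over the whole set of subunits, the muscle isoforms included. The median deviation of the 79 subunits from each gene's mean was -0.05, 0.08 and 0.13 in intact replicates 1, 2 and 3 and -0.17, 0.15 and -0.11 in preconditioned replicates 1, 2 and 3. By this median preconditioned replicate 2 was highest over the 79 subunits, narrowly above intact replicate 3, and the groups overlapped. Over all 93 members intact replicate 3 was higher (0.117 against 0.105). It was also higher for the subunits of complexes II, IV and V (0.15, 0.09 and 0.16 against 0.10, 0.03 and 0.10). Within the preconditioned mice, replicate 2 was the highest for 67 of 93 members (72.0%), against 31.0% of all genes. Intact replicate 1 was the lowest intact mouse for 64 members (68.8%, against 37.6% of all genes). Preconditioned replicate 2 exceeded replicate 1 by over 0.5 for 17 members, 18.3% against 4.34% of all genes. Besides the muscle isoforms these included Atp5mpl (0.86), Cox7b (0.90), Ndufa10 (0.72) and Cox5a (0.65).

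With the mean heart muscle marker level of each array as a covariate, an alternative chosen after these values were seen, the median difference of the members was -0.03 in place of -0.10. Then 10 members were lower and 7 higher at an unadjusted p under 0.05 (background 13.1% and 8.45%), none was past the threshold, and 240 genes were called over all. Cox6a1 was at -0.60 and Atp5g1 at 0.58 in that fit, Cox6a2 at -0.42 and Cox7a1 at -0.12, and the sign of Cox8b turned (0.02 in place of -0.39). Intact replicate 1, the lowest intact mouse for most members, was not the lowest in heart muscle markers, where intact replicate 2 was. The marker level comes from the same arrays as the members, and the part of heart muscle in the members' differences was not tested.

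**Figure D5:**
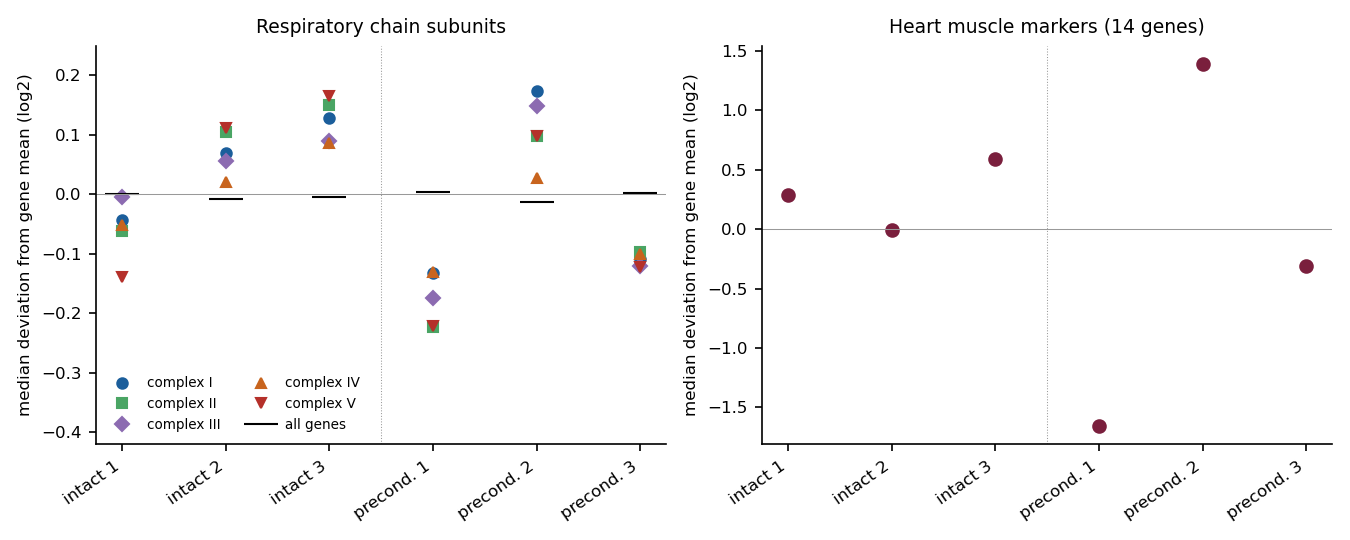
Median deviation from each gene's mean over the 6 arrays (y axis, log2) for subunits of complexes I to V and all genes (left) and for 14 heart muscle markers (right, wider scale), by array. Preconditioned replicate 2 lies above 0 and preconditioned replicates 1 and 3 below 0 in all 5 complexes, as in the heart muscle markers.

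Leaving out single mice moved these counts in both directions. Without intact replicate 1, 4 members passed the threshold among 1228 genes called (5.54%): Cox6a1 (-0.67, adjusted p = 0.0163), Atp5g2 (-0.55, 0.0349), Ndufa3 (-0.81, 0.0442) and Atp5g1 (0.69, 0.0476). Leaving out any of the other 5 mice gave no call among the members. The number of members lower at an unadjusted p under 0.05, 12 with all mice, was 23 without intact replicate 1 (background 15.2%) and 25 without preconditioned replicate 2 (9.45%). Omitting one of the other intact mice left 5 (replicate 2, background 7.57%) or 6 (replicate 3, 7.43%), and omitting one of the other preconditioned mice left 5 (replicate 1, 10.9%) or 4 (replicate 3, 9.39%). Without preconditioned replicate 2, the values of 41 members lay entirely below those of the intact mice, against 17.3% of all genes. Without intact replicate 1 this held for 32 members, against 23.1% of all genes.

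Assembly factors build the complexes and are not part of them. Among the 12 in the group, Ndufaf8 was lower (7.36, 7.44 and 7.40 against 7.01, 7.28 and 7.01, difference -0.30, adjusted p = 0.181) and Sdhaf4 higher (5.53, 5.58 and 5.396 against 5.84, 5.61 and 5.99, difference 0.31, adjusted p = 0.212) at an unadjusted p under 0.05. Both had groups that did not overlap. A wider list of 40 measured assembly factors, which includes these 12, had a median of -0.05. At an unadjusted p under 0.05, 4 were lower (10%, background 11.6%) and 2 higher (5%, background 7.53%), both shares below those of all genes. Its lowest p belonged to Cox16 (-0.43, adjusted p = 0.0860), a complex IV factor, and Tmem126b (-0.73, 0.0965), a complex I factor.

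Of the other genes of the pathway, measured in the same fit, 1 passed the threshold. ND6, encoded by mitochondrial DNA, was higher (log2 difference 0.92, adjusted p = 0.0399), while the other 9 measured mitochondrially encoded subunits lay between -0.04 and 0.09. The electron carrier gene Cycs read 9.40, 9.64 and 9.73 in intact and 9.04, 9.83 and 9.09 in preconditioned lungs, the same order over the preconditioned mice as the subunits (difference -0.27, adjusted p = 0.512), and Cyc1 of complex III was at -0.09. Among 15 regulators, 2 were lower (13.3%, background 11.6%) and 1 higher (6.67%, background 7.53%) at an unadjusted p under 0.05. These were Tfb1m (-0.36), a methyltransferase of mitochondrial ribosomal RNA, Tfb2m (-0.32), a transcription factor of mitochondrial DNA, and Ppargc1b (0.19), a coactivator of mitochondrial biogenesis. Nrf1 was at 0.00 (7.03, 7.08 and 7.09 against 7.15, 6.98 and 7.08) and Gabpa at 0.15, with overlapping groups.

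The citric acid cycle and pyruvate dehydrogenase list had 14 of 15 genes below 0, with a median of -0.24. At an unadjusted p under 0.05, 3 genes were lower (20%, background 11.6%) and none higher (background 7.53%). All 15 lay above the median level, where 19.2% of genes were lower and 5.21% higher. The lowest p were those of Idh3g (-0.40, adjusted p = 0.142) and citrate synthase, Cs (-0.32, 0.196). Genes of the mitochondrial ribosome had a median of -0.10 over 71 genes, with 13 lower (18.3%, background 11.6%) and 5 higher (7.04%, background 7.53%) at an unadjusted p under 0.05 and none past the threshold. Its lowest p were those of Mrpl49 (-0.67, adjusted p = 0.0776) and Mrpl34 (-0.38, 0.0949). Outside mitochondria, 39 proteasome subunits had a median of -0.10 (10 lower or 25.6%, 2 higher or 5.13%) and 90 cytosolic ribosomal proteins a median of 0.00 (8 lower or 8.89%, 6 higher or 6.67%). Most genes of the mitochondrial ribosome and proteasome lists also lay above the median level (13 of 71 and 4 of 39 below it). No difference between these lists and the respiratory chain was tested.

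As a check of the labelled tissue, the mean level over 5 alveolar type 2 markers lay between 11.29 and 11.96 and that over 4 endothelial markers between 10.06 and 10.72; these levels describe the probes used and were not set against other genes. All 3 measured alveolar macrophage markers and all 4 neutrophil markers were lower in preconditioned lungs at an unadjusted p under 0.05 (background 11.6%), with medians of -0.73 and -1.33. The mean neutrophil marker level was 5.84, 6.74 and 8.07 in intact and 5.47, 5.32 and 5.65 in preconditioned mice, so intact replicate 3 stood far above the rest. Mean levels of alveolar type 2 markers were 11.47, 11.96 and 11.94 in the intact mice, lowest in replicate 1 as for most respiratory chain genes. In the preconditioned mice they were 11.52, 11.29 and 11.35, lowest in replicate 2, where most respiratory chain genes were highest. Ciliated cell markers (4) had a mean level of 7.14, 8.44 and 7.84 in preconditioned mice, highest in replicate 2 and lowest in replicate 1. In intact mice their mean level was 7.79, 7.11 and 7.70, highest in replicate 1, unlike most respiratory chain genes. The median difference was -0.28 for alveolar type 2 cells, -0.27 for alveolar type 1 cells (4), -0.23 for endothelium, -0.06 for club cells (3) and 0.26 for ciliated cells, and Slc4a1, the 1 measured red cell marker, was at -0.67. The part of these cell types in the levels of the respiratory chain genes was not tested.

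A minority of the measurements rested on weak or shared probes. Of the 79 subunits, 6 had a mean level below the median of all genes (5.95), among them Cox7b2 and Cox8c, known from testis, and Cox7c. Of 10 members with 2 probe sets, none had one probe set above 0.3 and the other below -0.3, but Atp5h was at 0.11 with the probe set used and at -0.44 with the other, and Atp5e at 0.11 and -0.28. Both probe sets of Cox7b were low (-0.91 and -0.74). A further 10 probe sets named for genes of the rule together with another gene were not used. Arrays correlated with each other, across genes, at 0.978 to 0.993.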

How the data were processed

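Expression was measured in lung tissue of 6 mice on 1-colour arrays, from 100 ng of RNA each, per the labels. The authors deposited log2 values for 41345 probe sets, made with RMA (background correction, quantile normalization, summary over the probes of a set); limma is also named in the submitters' processing notes. Their versions, any filter and the build were not given in the sources used here. RMA hides a change shared by most genes. Symbols came from a platform annotation table: 23521 probe sets had 1 symbol, 1814 several and 16010 none listed. For each symbol the probe set of highest mean was kept, giving 22180 genes, with no filter on level.

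Each gene was fitted with limma 3.58.1 in R 4.3.3 (lmFit, eBayes without trend, no covariate), with Benjamini-Hochberg adjustment across the 22180 genes. The fit was checked on simulated data with added differences larger than that of any member, so its power at the members' sizes was not checked. Promoter windows came from RefSeq tables and were counted with python 3.11.15, taking the first window listed for a gene. Named members were the 8 of complex I and 4 each of complexes III, IV and V with the largest moderated statistic, all of complex II and 6 tissue-restricted isoforms; other members were named after their values were seen. Members, lists and rules were chosen with earlier results of these data known. The sample titles name no pairing of mice with equal replicate numbers. Deviations of same-numbered mice from their group means correlated at -0.06, -0.31 and -0.06 across genes, and those of other pairs at up to 0.24. Deviations within a group sum to 0, so these values are tied to each other and cannot settle whether mice were paired. Alternatives were other normalizations, a level filter, other variance models, array weights, a replicate block, other handling of probe sets, a threshold of 0.1, subunits only, leaving out each mouse, and heart muscle level as a covariate.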

Additional observations from a re-analysis of the deposited data

How the results depend on the processing

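The count of genes called over all genes, 21, was 76 among genes above the median level. It was 55 with an intensity trend and robust prior, 1125 with array weights and 4 with the replicate block (the sample titles name no pairing). At an adjusted p under 0.1 it was 642, and with the heart muscle covariate chosen after seeing the data 240. When 1 mouse was left out it was from 2 to 1228. Members called were 5 with array weights (Cox6a1, Atp5g1, Ndufs8, Atp5md and Ndufa3), against 5.07% of all genes. They were 2 at an adjusted p under 0.1 (Cox6a1 and Atp5g1), against 2.89% of all genes. When 1 mouse was left out they were 0 to 4, against 0.00902 to 5.54% of all genes. Members lower at an unadjusted p under 0.05 were 22 with array weights (background 15.0%) and from 4 to 25 when 1 mouse was left out (7.43 to 15.2%). Members higher were 4 after median centring (4.63%) and from 4 to 7 without 1 mouse (4.29 to 9.54%). Members with lower, separate values were 4 after cyclic loess (11.7%) and from 9 to 41 without 1 mouse (15.4 to 23.1%), and those with higher, separate values 3 after median centring (7.40%) and from 8 to 14 (14.8 to 21.7%). The median of complex IV was -0.25 among genes above the median level, -0.14 with array weights and from -0.23 to -0.0026 without 1 mouse. The causes of these shifts were not tested. Among 30 named members, 10 of the comparisons over 16 alternatives turned the sign of a value called in neither setting.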
